A study of Rattus norvegicus with 6 samples.

Results

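The untreated adult rat heart was described here by the miRNA signals of 3 of the 6 arrays of the series, those labelled control, each holding total RNA from the heart of 1 Sprague Dawley rat (animals 9, 10 and 11). All rat miRNA probes of these arrays were members, 761 in all, whatever their signal, and the 5S rRNA probes were left out. The rats were adults, given no dextran sodium sulfate (DSS). The other 3 arrays were from rats that drank 3% DSS in cycles to induce chronic colitis. They entered a single alternative of the normalization and were not otherwise analysed here. From each heart, 2 µg of total RNA was extended with a poly(A) tail, ligated to a tag, stained with Cy5 and hybridised to a microfluidic chip that carries 4 spots per probe. According to the study's methods the rats were male littermates, and the groups held more rats than were arrayed. How the 3 were picked was not given in the sources used here. RNA of a whole tissue was measured, so fewer cells of a type and less RNA per cell cannot be told apart. The probes bind with different strength, so that all ranks and shares below are of signal and not of molecules.

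A miRNA is a short RNA cut from a hairpin precursor, whose 5′ or 3′ arm (5p or 3p) is loaded into an Argonaute protein and guides it to messenger RNAs. The seed, bases 2 to 8 of the miRNA, pairs with the target, so miRNAs with the same seed are counted as a family. In the heart, miR-1 and miR-133 of the muscle cells, miR-208a and miR-499 of the myosin genes, miR-126 of endothelium and miR-143 and miR-145 of smooth muscle are the best known.

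The mature sequences of the families that held most of the signal are given first, 5′ to 3′, as the array's target column listed them. Capitals mark the seed. The miR-133 seed was carried by both of the brightest miRNAs, which differ by 1 edit.
miR-133a-3p: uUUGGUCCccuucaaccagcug
miR-133b-3p: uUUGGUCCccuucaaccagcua
The miR-30 seed was carried by the next miRNA by signal and by 4 further 5p arms detected in every heart, of which 2 are shown.
miR-30c-5p: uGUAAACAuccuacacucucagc
miR-30a-5p: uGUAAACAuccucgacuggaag
miR-30e-5p: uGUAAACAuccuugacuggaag
The seeds of miR-23, miR-26 and miR-29 followed, each shared by 2 or 3 miRNAs.
miR-23a-3p: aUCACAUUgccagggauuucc
miR-23b-3p: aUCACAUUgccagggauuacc
miR-26a-5p: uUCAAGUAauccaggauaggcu
miR-26b-5p: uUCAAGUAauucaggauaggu
miR-29a-3p: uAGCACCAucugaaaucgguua
miR-29b-3p: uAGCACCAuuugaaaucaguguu
miR-29c-3p: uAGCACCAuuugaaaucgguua
The next sequences belong to the vessel and muscle miRNAs to which the results return. miR-1-3p, miR-1b and miR-206-3p share a seed, and that of miR-499-5p differs from that of miR-208a-3p.
miR-126a-3p: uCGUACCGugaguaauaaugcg
miR-126a-5p: cAUUAUUAcuuuugguacgcg
miR-145-5p: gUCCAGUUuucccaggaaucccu
miR-143-3p: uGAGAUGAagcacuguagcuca
miR-1-3p: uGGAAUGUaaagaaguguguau
miR-1b: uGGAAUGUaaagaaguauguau
miR-206-3p: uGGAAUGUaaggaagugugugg
miR-499-5p: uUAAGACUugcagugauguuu
miR-208a-3p: aUAAGACGagcaaaaagc
miR-208a-5p: gAGCUUUUggcccggguuauac

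By the study's rule for a detectable miRNA (2 or more of 4 spots brighter than the background by 3 SD, here of the empty spots, each with a coefficient of variation under 0.5), 283 miRNAs were detected in animal 9, 223 in animal 10 and 255 in animal 11, a mean of 253.7 ± 30.02 (SD, n = 3). Detection in all 3 hearts was found for 205 miRNAs (26.9% of 761), in 2 hearts for 43 and in 1 heart for 60, while 453 were detected in none. The array of animal 10 had the highest background, 95.4 against 37.4 and 36.6 units of brightness, and the fewest detected miRNAs. Empty spots passed the same brightness limit on all 3 arrays, 10.8% of them in animal 9, 23.4% in animal 10 and 1.58% in animal 11, so that detection near the limit was not firm. Failed spots were sought only in probes with a median brightness above 500 units over their 4 spots. In these, the array of animal 11 held 10 spots that read over 4-fold below their own probe's median. The other arrays held none in such probes, and dimmer probes were not checked. Where the text gives the log2 signal of a miRNA concerned, its value by the median of the spots is given beside that by the mean. Shares of families, lists and clusters are by the mean of the spots unless stated.

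Signal was concentrated in few miRNAs. The 10 brightest held 42.6% of the rat miRNA signal in animal 9, 43.7% in animal 10 and 38.6% in animal 11. In these hearts 13, 13 and 16 miRNAs held 50% of the signal, and 65, 99 and 83 held 90%. The miRNAs not detected on an array, although most of the probes, held 1.25%, 4.86% and 1.80% of its signal.

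miR-133a-3p, which restrains smooth muscle genes and proliferation in cardiac muscle, was the brightest miRNA in all 3 hearts. Its log2 signal was 14.57 in animal 9, 14.91 in animal 10 and 14.69 in animal 11 (mean 14.72 ± 0.18, SD, n = 3), and it held 5.79% ± 0.42 (SD, n = 3) of the signal. miR-133b-3p read 14.52, 14.81 and 14.44 and was second in every heart. It lay below miR-133a-3p in each of them, by a mean of 0.13 ± 0.11 (SD, n = 3) on the log2 scale, while the probes differ by 1 edit and may cross-hybridise, which was not tested.

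miR-30c-5p came next, at 14.45, 14.47 and 14.41. On this normalized log2 scale it was the steadiest of the 20 brightest, with an SD of 0.03 (by the median of the spots, miR-126a-3p was, with 0.05 against 0.07). In shares of the signal, not scaled between arrays, it held 5.40%, 4.53% and 4.43%, and miR-125b-5p was steadier with 3.32%, 3.27% and 3.57%. miR-26a-5p, a miRNA of most adult tissues, varied more than miR-30c-5p on the log2 scale, with 13.86, 14.76 and 14.40. The endothelial miR-126a-3p was at 14.28, 14.22 and 14.27, nearly the same in the 3 hearts on that scale, with shares of 4.77%, 3.79% and 4.02%. It lay above miR-125b-5p, at a mean of 13.95 ± 0.16, in each heart. Then came miR-29a-3p, which targets collagen messenger RNAs, with a mean log2 signal of 13.91 ± 0.20, miR-22-3p with 13.88 ± 0.19, miR-23a-3p with 13.87 ± 0.73, and miR-145-5p with 13.44 ± 0.06 (SD, n = 3 each). The tenth place depends on how spots are combined: miR-23b-3p, ranked 14 at 13.15 ± 1.08, had a failed spot in animal 11, where it read 12.14 by the mean of the spots and 13.93 by their median, and it ranked 10 by the median.

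The rest of the 20 brightest, from miR-24-3p at 13.37 to miR-143-3p at 12.61, held the remaining miR-30 5p arms (miR-30b-5p, miR-30a-5p, miR-30d-5p and miR-30e-5p), miR-499-5p, miR-1b, miR-27b-3p and miR-23b-3p. The 20 together held 60.3% ± 3.91 (SD, n = 3) of the signal, and 16 of them were among the 20 brightest of every heart. Their order was mostly not resolved. Of the 20 steps from a miRNA to the next one down the ranking, 3 went the same way in all hearts, and in 2 of these, miR-133a-3p over miR-133b-3p and miR-126a-3p over miR-125b-5p, the mean step was larger than its SD over the hearts.

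**Figure D1:**
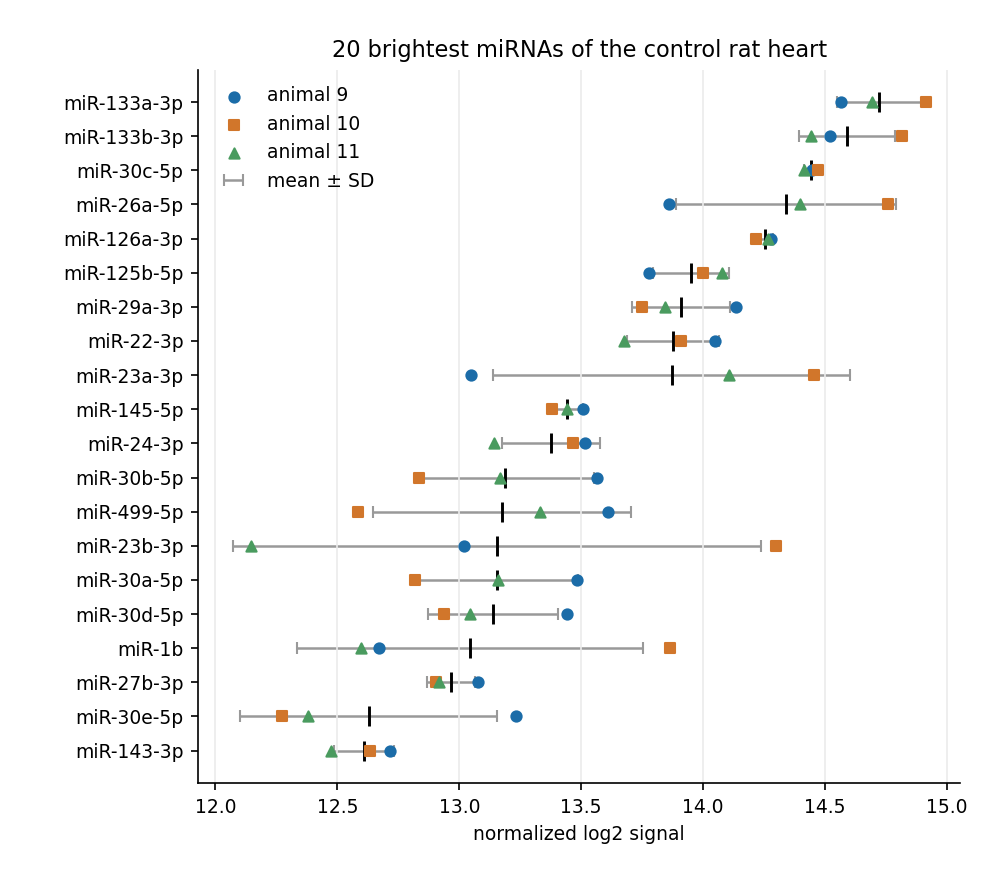
Normalized log2 signal (x axis) of the 20 brightest miRNAs in the 3 control hearts, 1 symbol per animal, with the mean as a tick and the SD as a bar (n = 3). miR-133a-3p and miR-133b-3p are first and second in every heart, miR-30c-5p and miR-126a-3p have nearly coinciding symbols, and miR-23a-3p, miR-23b-3p and miR-1b spread widely.

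Summed over miRNAs with a shared seed, the miR-30 family had the largest mean share. Its 6 probes held 15.4% of the signal in animal 9, 10.1% in animal 10 and 11.2% in animal 11 (mean 12.3% ± 2.80, SD, n = 3), and miR-30c-5p gave 39.0% of that. On the normalized log2 scale animal 9 was highest for 4 of the 5 detected members, miR-30c-5p being the exception. In shares miR-30c-5p was highest in animal 9 too, with 5.40% against 4.53% and 4.43%. miR-384-5p, the sixth probe, was detected in 1 heart. The miR-133 family held 11.7%, 11.8% and 9.96% (mean 11.2% ± 1.04, SD, n = 3), in nearly equal parts from its 2 members, whose probes may cross-hybridise. The range of the 2 families overlapped, and the miR-30 family was ahead in animals 9 and 11 but not in animal 10. Without animal 9 the order turned, with 10.7% for miR-30 and 10.9% for miR-133.

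The miR-23 seed held 3.87%, 8.62% and 6.44% in animals 9, 10 and 11, the widest relative range of the 5 leading families. Its member miR-23b-3p had a failed spot in animal 11, and by the median of the spots the mean share was 6.52% in place of 6.31%. The miR-26 seed, with 5.27% ± 1.28 (SD, n = 3), was also lowest in animal 9, and 85.3% of it came from miR-26a-5p. The miR-29 seed ran the other way, at 6.61%, 3.30% and 4.40%, with all 3 members highest in animal 9 and lowest in animal 10. These 5 seeds together held 39.8% ± 2.05 (SD, n = 3) of the signal, and the 10 leading seeds, of 634 on the array, held 59.1% ± 2.31.

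Among the further families, miR-125 held 4.29% ± 0.61, the single miR-126a-3p 4.19% ± 0.51 and miR-15/16, whose members restrain the cell cycle, 3.90% ± 1.14 (SD, n = 3 each). All 6 probes with the miR-15/16 seed were detected in every heart, against 26.9% of all probes. The 3 brightest, miR-16-5p, miR-195-5p and miR-322-5p, had mean log2 signals of 12.26, 12.25 and 12.23. The let-7 family, known for differentiated tissue, held 2.81%, 3.67% and 4.49%, spread over 8 detected members of 9, of which the leading one gave 19.8%. let-7g-5p was the brightest of them at 10.61, 12.15 and 11.98, and let-7a-5p read 11.22, 10.99 and 11.52. let-7c-5p, with a failed spot in animal 11, read 11.23, 11.51 and 10.48, or 11.68 in animal 11 by the median of the spots. let-7e-5p, at a mean of 8.16, and miR-98-5p, detected in 2 hearts, were the dim members.

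**Figure D2:**
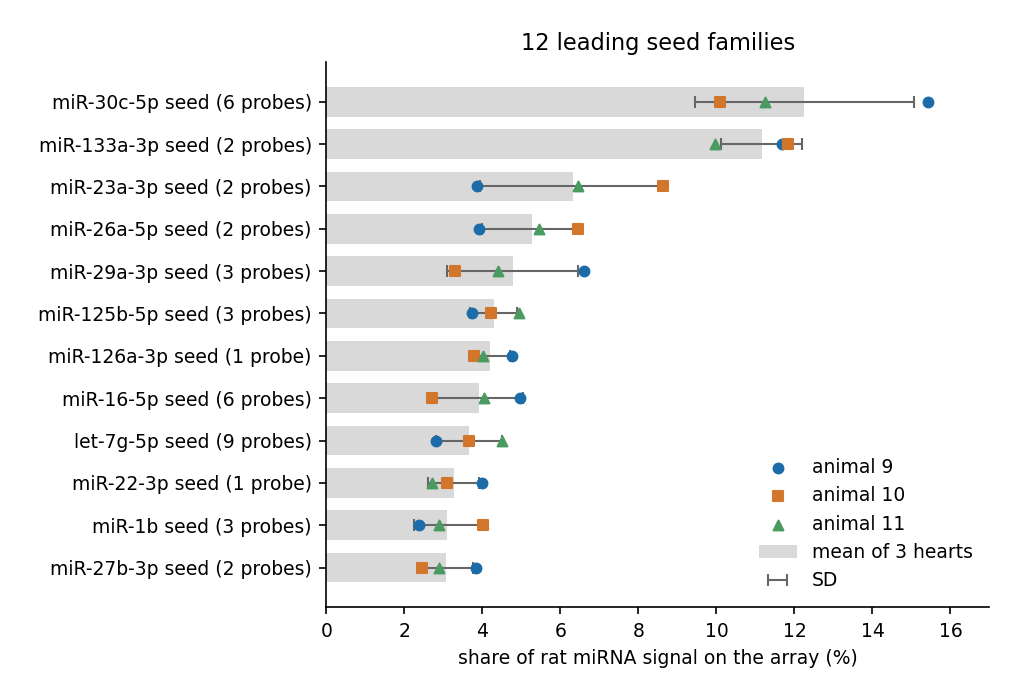
Share of the rat miRNA signal of each array (x axis, percent) held by the 12 leading seed families, each named by its brightest member. Bars show the mean and error bars the SD of 3 hearts, and symbols the single animals. The miR-30 seed reaches 15.4% in animal 9 and 10.1% in animal 10, and the miR-23 seed 3.87% and 8.62%.

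Families outside the lists described here were small. The largest were miR-191a-5p with 1.08% ± 0.20, miR-148/152 with 0.667% ± 0.199 over 3 miRNAs and miR-181 with 0.555% ± 0.0398 over 4 (SD, n = 3 each). The miR-181 share was close to the same in the 3 hearts, at 0.577%, 0.509% and 0.579%.

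The label heart was compared with miRNAs known for the cell types of the organ. The cardiac muscle list had 16 probes for both arms of miR-1, miR-133, miR-206, miR-208 and miR-499, and 8 of them were detected in all 3 hearts, against 26.9% of all probes. It held 17.3%, 17.6% and 15.4% of the signal (mean 16.8% ± 1.21, SD, n = 3). miR-499-5p, encoded inside the slow myosin gene Myh7b, read 13.61, 12.59 and 13.33. miR-1b read 12.67, 13.86 and 12.60, with a failed spot in animal 11, where the median of the spots was 13.06, and miR-1-3p read 11.98, 12.16 and 12.53. miR-206-3p, which belongs to skeletal muscle, was detected in every heart at 8.02 ± 0.18 (SD, n = 3), far below miR-1-3p, whose seed it shares.

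The probes of miR-208, encoded inside the cardiac myosin heavy chain genes, read low. miR-208a-5p was detected in all 3 hearts at 9.28, 9.75 and 8.73, the last with a failed spot and 9.38 by the median of the spots, but the 3p arm, the form usually studied, was detected in 1 heart, at 7.06 in animal 9 against 6.26 and 6.49. The target listed for that probe, shown above, is 18 bases long, against a median of 22 over all probes. Neither arm of miR-208b, which lies in the myosin gene of the slow fibre, was detected in any heart. miR-133c, whose listed sequence lies opposite miR-133a-3p on the other strand, was detected in 2 hearts and read 6.92, 6.93 and 6.57.

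Vessel and stroma miRNAs were present in every heart. The endothelial list held 4.27% ± 0.47 of the signal, and nearly all of it was miR-126a-3p. The smooth muscle list held 3.88% ± 0.40 (SD, n = 3), with miR-145-5p at 13.51, 13.38 and 13.44 and miR-143-3p at 12.72, 12.64 and 12.47, each with a range under 0.3 on the log2 scale. The fibroblast list (miR-199a and miR-214) held 1.14% ± 0.13, led by miR-199a-3p at 11.67, 12.13 and 12.07.

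miRNAs known for blood cells differed between the hearts. The red blood cell list held 1.30%, 0.70% and 0.83% of the signal in animals 9, 10 and 11. miR-451-5p, abundant in red cells, was highest in animal 9, at 12.44 against 11.17 and 11.33, while miR-486, the other member detected in every heart, was lowest there, at 9.20 against 9.94 and 10.04. The white blood cell list held 0.426%, 1.24% and 1.23%, lowest in animal 9, and its leading member was the lymphocyte miRNA miR-150-5p at 10.73, 12.47 and 12.34. Of its other defining members, miR-223-3p of myeloid cells read 8.16, 7.07 and 8.22, miR-142-3p and miR-142-5p were each detected in 1 heart, and miR-155-5p and miR-155-3p were detected in none. Whether blood in the tissue had a part in these values was not tested.

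Most markers of other organs were near the floor. Of 34 probes listed for liver, brain, pancreas, epithelium and gut, 27 were detected in no heart, 3 in some and 4 in all, against 59.5% of all probes in no heart and 26.9% in all. Together they held 0.326% ± 0.0916 (SD, n = 3) of the signal, or 0.613% with no background removed and 0.187% when only miRNAs detected in all hearts were counted. The 4 were miR-192-5p at 8.38, miR-194-5p at 8.20, miR-122-3p at 7.74 and miR-9a-5p at 7.23. miR-192-5p and miR-194-5p are of the gut list, which had 2 of its 5 probes detected in all hearts. The liver miRNA miR-122-5p itself was detected in no heart, with a log2 signal of 6.08 against a median of 6.28 over all 761 probes. The pancreas miRNA miR-375, the brain miRNA miR-124 and the epithelial miR-200 and miR-141 probes were also detected in no heart.

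**Figure D3:**
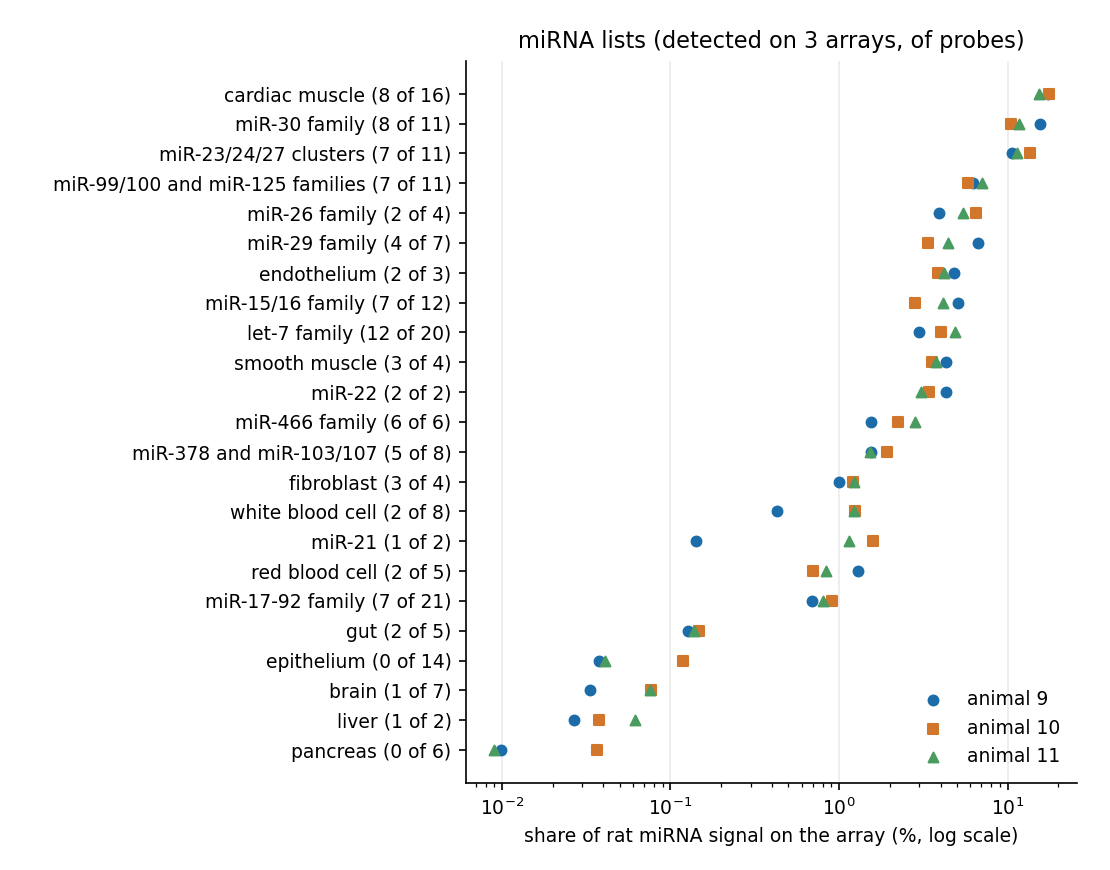
Share of the rat miRNA signal of each array (x axis, percent, log scale) held by the miRNA lists, with the number of probes detected in all 3 hearts, of the probes on the array, in brackets, and 1 symbol per animal. The cardiac muscle list lies at 15.4% to 17.6%, the lists of liver, brain, pancreas, epithelium and gut lie below 0.2%, and the miR-21 and white blood cell lists are lowest in animal 9. Some lists share members.

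Among the other lists were the miR-99/100 and miR-125 group, with 6.37% ± 0.63 of the signal and miR-99a-5p at 12.26, and the group of miR-378, miR-103 and miR-107, all linked to metabolism, with 1.67% ± 0.22 (SD, n = 3 each). All 6 probes of the miR-466 family, which lie within the bounds of Sfmbt2, were detected in every heart and held 1.54%, 2.23% and 2.81%. The brightest of them were miR-466b-3p at 11.83 and miR-466c-3p at 11.66. The proliferation-linked miR-17-92 family had 7 of 21 probes detected in all hearts, a share near the 26.9% of all probes, and held 0.803% ± 0.107 (SD, n = 3), with miR-25-3p at 9.88 and miR-92a-3p at 9.59.

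Many of the bright miRNAs are encoded side by side. With RefSeq loci of the rat build GRCr8 and hairpins of a strand within 10000 bases joined, 52 clusters had probes, and 32 of them had a member detected in all hearts. A cluster holds several probes, and 26.9% of all probes were detected in all hearts, so this count says little about clustering. On chromosome 18, miR-133a-3p (chr18:2157886-2157907, minus strand) and miR-1-3p (chr18:2160339-2160360) lie within the bounds of Mib1, and that cluster held 7.05% ± 0.25 of the signal (SD, n = 3). Within it the mean log2 signals were 14.72 for miR-133a-3p and 12.22 for miR-1-3p, read by separate probes. miR-133b-3p (chr9:30594629-30594650, plus strand) lies in a cluster with miR-206-3p, where the means were 14.59 and 8.02.

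The paired clusters of miR-23, miR-27 and miR-24 lie on chromosome 19 (chr19:40859455-40859843, minus strand) and, within the bounds of Aopep, on chromosome 17 (chr17:1818669-1819482, minus strand). They held 7.14% ± 0.57 and 6.97% ± 0.89 of the signal (SD, n = 3), with miR-24-3p, which has a copy in each, counted in both. The chromosome 17 share was 6.35% in animal 11, where miR-23b-3p had a failed spot, and is by the mean of the spots only. The pair of miR-30c-1 and miR-30e within Nfyc (chr5:139634455-139637541, minus strand) held 6.23% ± 1.14, with miR-30c-5p also having a second locus. miR-145 and miR-143 (chr18:57369983-57371453, minus strand), within the long noncoding RNA Carmn, held 3.88% ± 0.40. Some other miRNAs named here also lie within the bounds of known genes. Among them were miR-126a-3p (chr3:29813219-29813240, plus strand) in Egfl7 and miR-26a-5p (chr8:127633063-127633084, plus strand) in Ctdspl. Further ones were miR-499-5p (chr3:164570616-164570636, plus strand) in Myh7b and miR-208a-5p (chr15:32395599-32395620, minus strand) in Myh6. Gene bounds were read, and whether the miRNA lies in an exon or an intron was not.

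Which arm of a hairpin gave the signal was compared within each heart. The array carried probes for both arms of 282 hairpins, and the 132 with at least 1 arm detected in all hearts were tested on the 5p minus 3p difference in limma. Of these 132, 125 (94.7%) had arms that differed at an adjusted p under 0.05, 67 (50.8%) with the 5p arm brighter and 58 (43.9%) with the 3p arm brighter. Arm by arm the test cannot tell an unequal amount from an unequal probe, and 105 pairs entered on 1 arm alone, the other being below detection in at least 1 heart, so that the share called over all 132 says little by itself. Of the 27 pairs with both arms detected in every heart, 23 differed, 11 toward 5p and 12 toward 3p. Their differences, called or not, ran from 1.02-fold to 64.4-fold with a median of 6.66-fold, and 15 exceeded 4-fold. All arm folds given here are from log2 signals with an offset of 50 added, which makes them smaller where an arm is dim.

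The largest difference among those 27 pairs was that of miR-126a, whose 3p arm was the brighter. The 5p arm read 6.81, 8.55 and 9.37 in animals 9, 10 and 11 while the 3p arm stayed near 14.25, and the mean difference was 64.4-fold (log2 -6.01, SE 0.40, limma adjusted p = 4.60e-08). On the normalized log2 scale the 5p arm therefore varied between the hearts while its partner hardly did. In miR-29c the 3p arm was brighter by 32.3-fold (log2 -5.01, SE 0.31), and in miR-133a by 29.6-fold (log2 -4.89, SE 0.28), although miR-133a-5p, at 9.84 (10.10 by the median of the spots, 1 of which failed in animal 11), was itself detected in every heart. miR-466c (log2 -3.77, SE 0.25) and miR-22 (log2 -3.24, SE 0.24) followed, and the 5p arm of miR-22 was bright too, at 10.64.

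Toward the 5p arm, miR-30a led with 24.7-fold (log2 4.63, SE 0.29, limma adjusted p = 2.60e-08). let-7b followed with 16.9-fold (log2 4.08, SE 0.24), miR-145 with 15.9-fold (log2 3.99, SE 0.24), miR-322 with 11.4-fold (log2 3.52, SE 0.26) and miR-99b with 9.21-fold (log2 3.20, SE 0.24). Each of these 5 had the 5p arm brighter in all 3 hearts. The arms of 4 of the 27 pairs did not differ past the threshold, namely miR-324, miR-674, miR-149 and miR-3068. The difference for miR-674 was 0.02 ± 0.26 (SE) and had no common sign in the 3 hearts. Of miR-149 both arms were fairly bright, at 9.87 and 9.45, with the 3p arm ahead in animal 9 and the 5p arm ahead in animals 10 and 11 (limma adjusted p = 0.155).

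In 81 of the 132 pairs the dimmer arm was detected in no heart, and only a bound can be given, taken as the mean of the bright arm over the mean, per array, of the higher of the dimmest detected miRNA and the dim arm itself. By this bound miR-133b-3p was at least 263-fold above miR-133b-5p, and miR-26a-5p at least 221-fold above miR-26a-3p. miR-23a-3p was at least 160-fold above its 5p arm, miR-30d-5p at least 96.4-fold above its 3p arm, miR-143-3p at least 66.7-fold and miR-1-3p at least 51.0-fold above their 5p arms. For miR-451, at least 34.2-fold toward 5p, and miR-21, at least 32.3-fold toward 5p, the same held. Within families the favoured arm was mostly shared: the 5p arm was the brighter in miR-30a, miR-30b, miR-30d and miR-30e, and the 3p arm in miR-23a, miR-23b, miR-27a and miR-27b. The liver hairpin miR-122 was unlike its usual form, with the 3p arm at least 2.29-fold above the 5p arm, both dim. In miR-208a the 5p arm was detected in every heart and the 3p arm in 1, with the values given above, and no fold is given.

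**Figure D4:**
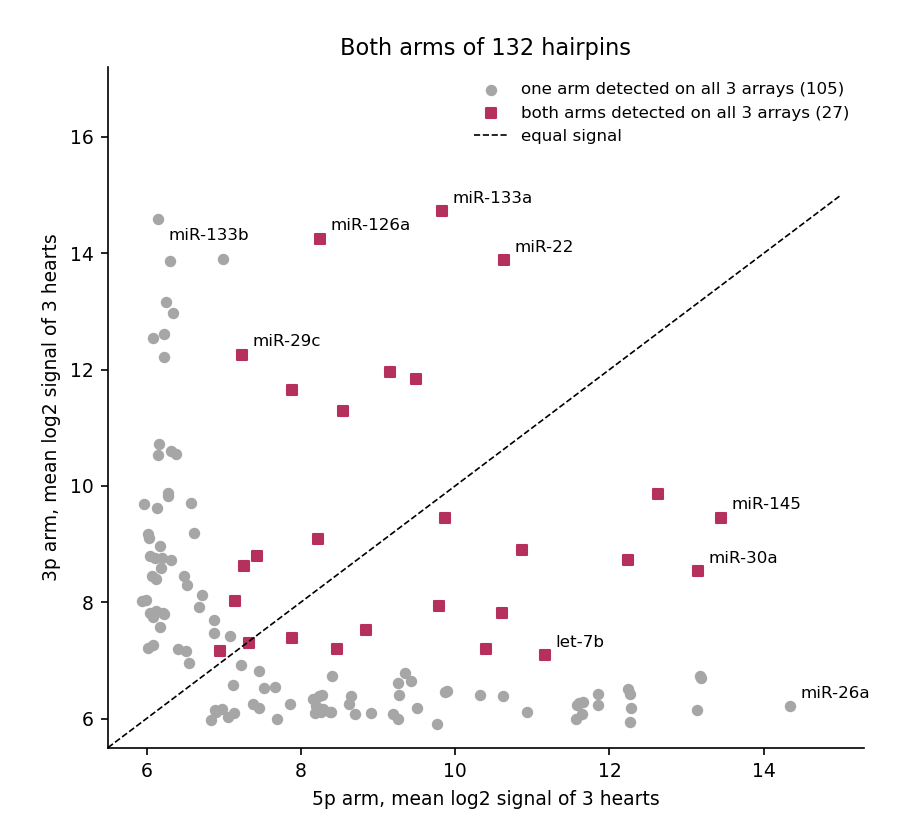
Mean log2 signal over 3 hearts of the 5p arm (x axis) and the 3p arm (y axis) of 132 hairpins, with both arms detected in all hearts (squares, 27) or not (circles, 105). The dashed line marks equal signal. Most circles lie along the 2 axes near the floor of about 6, and the squares for miR-126a, miR-133a and miR-29c lie far above the line and those for miR-30a, miR-145 and let-7b far below it.

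Across the 205 miRNAs detected in all hearts, the hearts were alike in rank and differed in detail. As a description over miRNAs, which are not independent, Pearson's r was 0.935 between animals 9 and 10, 0.941 between animals 9 and 11 and 0.974 between animals 10 and 11, with Spearman's rho of 0.911, 0.909 and 0.963. The median SD of a miRNA over the 3 hearts was 0.297 on the log2 scale, against 0.149 between the 4 spots of a probe, and the SD over hearts exceeded that over spots for 153 of the 205. These SDs are of unlike quantities, the first of means over 4 spots and the other of single spots. Without animal 9 the median SD fell to 0.180, over the miRNAs detected in both remaining hearts.

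Animal 9 was the one farthest from the other two for 104 of the 205 miRNAs, animal 10 for 54 and animal 11 for 47. It lay more than 1 on the log2 scale outside both others for 16 miRNAs, lower for 12 and higher for 4. The 12 included miR-21-5p, miR-150-5p, miR-125a-5p, miR-26b-5p, let-7g-5p, miR-23a-3p, miR-10a-5p and miR-92a-3p, and the 4 were miR-451-5p, miR-101a-3p, miR-3585-5p and miR-19b-3p. Animal 10 lay so for 7 miRNAs, with miR-29c-3p, miR-29b-3p and miR-15a-5p among the 5 that were lower, and animal 11 for none. The 2 that were higher in animal 10, miR-23b-3p and miR-1b, had failed spots in animal 11, and by the median of the spots animal 11 lay within 1 of animal 10 for both. No slide or scan date was given, so that a difference of the array and one of the animal cannot be told apart.

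miR-21-5p, known to rise in stressed and fibrotic hearts, had the widest range of the 205 on the log2 scale. It read 9.47 in animal 9, 12.89 in animal 10 and 12.33 in animal 11, a range of 10.8-fold, and its share of the signal was 0.139%, 1.58% and 1.15%. The 4 spots of its probe differed by an SD of 0.146, so the range was not that of a single spot, and it was 3.43 on the log2 scale by the mean and by the median of the spots. miR-126a-5p came next with 5.87-fold, then miR-374-5p (7.49, 8.83 and 9.79) with 4.92-fold and miR-29b-3p (10.70, 8.45 and 9.97) with 4.76-fold. The offset makes such folds smaller for dim probes, and in linear signals without it miR-126a-5p had the widest range, at 17.8-fold, ahead of miR-21-5p with 11.0-fold and miR-374-5p with 10.7-fold. The authors' processed values put miR-126a-5p ahead of miR-21-5p too, at 10.4-fold against 8.76-fold. miR-23b-3p had 4.46-fold on the log2 scale with the offset, and its log2 range fell from 2.16 to 1.35 by the median of the spots. A range above 1 on the log2 scale was found for 47 of the 205 miRNAs, or 44 by the median of the spots.

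The narrowest ranges were those of miR-351-5p (0.03), miR-30c-5p (0.06), miR-126a-3p (0.06), miR-22-5p (0.08) and miR-130a-3p (0.08), all on the log2 scale. miR-30c-5p and miR-126a-3p are of the 5 brightest miRNAs, while miR-351-5p, at 7.06, lay near the limit of detection, where the offset of 50 compresses differences. The median SD was 0.218 in the dimmest 69 of the 205 miRNAs, 0.401 in the middle 67 and 0.361 in the brightest 69.

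**Figure D5:**
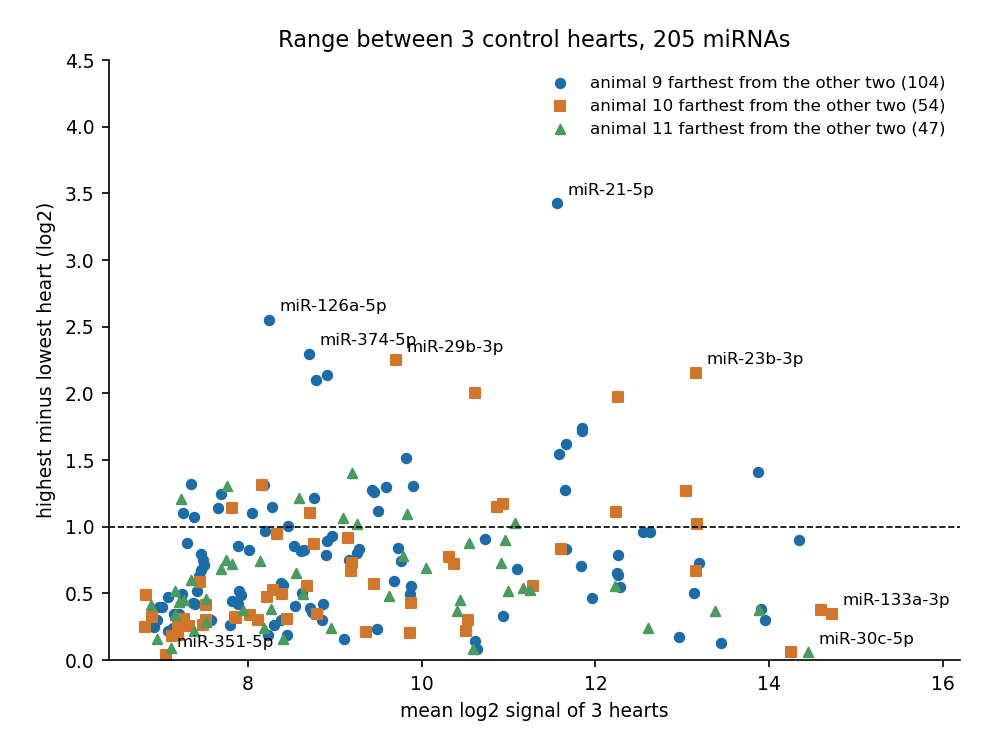
Highest minus lowest heart on the log2 scale (y axis) against the mean log2 signal of 3 hearts (x axis) for the 205 miRNAs detected in all hearts, with the symbol showing which animal was farthest from the other two. The dashed line marks a range of 1, which 47 miRNAs exceed. miR-21-5p is highest at 3.43, and animal 9 is the farthest for 104 miRNAs.

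Near-identical miRNAs were compared last. Of the detected miRNAs, 32 pairs lay within 2 edits of each other, 18 of them at 1 edit, and 24 of the 32 had mean signals within 1 on the log2 scale. These pairs drew on 42 miRNAs, so some miRNAs entered several pairs. The share of all pairs of detected miRNAs that lie this close was not computed, so the count says little by itself. miR-103-3p and miR-107-3p differed by -0.02 ± 0.04 (SD, n = 3), miR-30a-5p and miR-30d-5p by 0.01 ± 0.12 and miR-378a-3p and miR-378b by 0.29 ± 0.07. Other pairs at 1 edit were well apart, with let-7a-5p above let-7e-5p by 3.08 ± 0.48, miR-181a-5p above miR-181c-5p by 2.65 ± 0.24 and miR-29a-3p above miR-29c-3p by 1.65 ± 0.80. The sequences of the first 2 kinds are set side by side to show how little separates them.
miR-103-3p: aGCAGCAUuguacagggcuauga
miR-107-3p: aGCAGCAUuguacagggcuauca
let-7a-5p: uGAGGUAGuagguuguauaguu
let-7e-5p: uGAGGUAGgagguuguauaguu
How far a near-identical target added to the signal of a probe was not tested.

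The first base and the age of the name went with the signal as a description over all probes. A U at the first base, which Argonaute proteins are known to favour, was found in 36.8% of the 761 miRNAs, in 43.9% of the 205 detected in all hearts and in 16 of the 20 brightest, and miRNAs that begin with U held 68.9% ± 2.68 (SD, n = 3) of the signal. miRNAs named with numbers up to 500, the ones found earliest and let-7 included, were 513 of the probes and held 95.9% ± 0.70 of the signal, while the 138 with numbers above 1000 held 2.12% ± 0.42. The brightest of the latter was miR-1896 at 10.44, rank 58. GC content had a Spearman rho of 0.10 with the signal over all 761 probes and of -0.29 over the 205.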

How the data were processed

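Heart miRNA of 3 control rats was measured on 1 array each, and arrays were grouped by their labels. The authors deposited scanner intensities (per the file headers, a median brightness and a pixel SD for every spot, linear and with the background included) and a table of processed intensities from which they had subtracted the background and which they had normalized with a LOWESS filter. The processed values served as an alternative only, and the 3 arrays of the DSS group entered a single alternative of the normalization.

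R 4.3.3 with limma 3.58.1 and Python 3.11.15 with matplotlib 3.10.9 were used. Background was removed with normexp (offset 50), the 4 spots of a probe were combined as the mean of their log2 values, and the 3 arrays were normalized by cyclic LOWESS with a span of 0.7 and 3 iterations, fitted to all 761 rat miRNA probes. The offset makes differences of dim probes smaller than they are. Shares used linear signals of each array without the offset or scaling between arrays. For detection, background meant the median brightness among the 25% of miRNA spots that were dimmest, and the SD was that of the 632 empty spots. Arms were tested with limma (lmFit, eBayes) on 5p minus 3p differences within arrays, with Benjamini-Hochberg adjustment over 132 pairs and a threshold of 0.05. The p-values measure the spread between these 3 rats only, and the number of arrays limits the precision. The arm test was tested on simulated data.

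The text names the 20 brightest miRNAs, the detected members of 23 lists (the brightest of each by name), the 5 largest arm differences each way among pairs with both arms detected, the 5 widest and 5 narrowest ranges and the 3 largest seed families outside the lists. Further miRNAs were named after their values were seen. Members and lists were chosen with earlier results of these data known. Sequences are those of the files, and 688 of the 761 probes were matched by name in the RefSeq table of GRCr8, 686 with the same sequence. Alternatives covered detection, background, normalization, spots, the pairs tested and each array left out in turn.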

Additional observations from a re-analysis of the deposited data

How the results depend on the processing

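All 20 brightest miRNAs remained among the 20 brightest by mean log2 signal under the 8 alternatives of background, spots and normalization (19 did by the mean of the authors' linear values, miR-143-3p falling to rank 22), and 18 to 20 did with each heart left out in turn. The number of miRNAs detected per array, 253.7 on average, was 304.0 with a limit of 2 SD, 208.7 with 5 SD and 217.0 when counted from the median empty spot. Without background removal the 10 brightest held 38.7% of the signal in place of 41.6%, and by the authors' processed values 38.3%, with 5.03% for miR-133a-3p and 15.2% for the cardiac muscle list. Leaving out a heart gave 40.6% to 43.1% for the 10 brightest, 5.64% to 6.03% for miR-133a-3p, 21.6% to 24.5% for the miR-30 and miR-133 seeds together (23.4% with all hearts) and 16.3% to 17.4% for cardiac muscle. The median SD between hearts was 0.180 without animal 9, and 0.180 to 0.278 with each heart left out in turn. With scaling to the 75th percentile, LOWESS over all 6 arrays or no normalization it was 0.343 to 0.399, against 0.297 in the main setting. It was also higher with plain subtraction of the background and, at 0.402, by the authors' processed values. Quantile normalization left it at 0.294, and detection in at least 2 hearts at 0.287. Over all 761 probes, most of them at the floor, it was 0.096 and the lowest correlation was 0.970, while the authors' values gave a lowest correlation of 0.910. Of the arm pairs, 128 of 135 tested differed without animal 9, 124 of 147 without animal 10 and 112 of 133 without animal 11. Toward 5p these were 59 to 70 and toward 3p 53 to 59. When all 282 hairpins with both arms on the array were tested, detected or not, 152 differed. When both arms had to be detected 27 pairs were tested and 23 differed (11 and 12), by construction. Of 286 further values over 32 families and lists, 15 moved by more than the SD between hearts. The order of the miR-30 and miR-133 seeds turned without animal 9 (10.7% and 10.9%). No paired analysis was possible because only control hearts were compared and the animal numbers are not shared between groups. The number of hearts (3), the high background of animal 10 and the failed spots of animal 11 limit all values.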
